A study of Mus musculus with 24 samples.

Results

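Differentiation of MuSK-null muscle cells in culture was followed by comparing untreated MuSK-null myotubes with untreated MuSK-null myoblasts, across 19938 genes. The groups were chosen from the sample labels: 3 arrays of MuSK-null myotubes and 3 of MuSK-null myoblasts, which are 6 of the 24 arrays of the series. The series as a whole holds 8 groups of 3 arrays, from a MuSK-/- and a wild-type line, as myotubes or myoblasts, with or without bone morphogenetic protein 4 (BMP4, 25 ng/ml for 8 h). MuSK-null is used below for the line labelled MuSK-/-. The wild-type line is labelled H-2Kb-tsA58, after a temperature-sensitive T antigen driven by the H-2Kb promoter, and both lines are described as immortalized.

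Untreated MuSK-null myotubes came from confluent cultures kept for 3 days at 37 °C in 5% horse serum. Untreated MuSK-null myoblasts were grown at 33 °C on gelatin with 20% fetal bovine serum, chicken embryo extract and interferon-γ. The lower temperature and interferon-γ keep the T antigen active. Untreated wild-type myotubes and untreated wild-type myoblasts had the same media and temperatures. BMP4-treated MuSK-null myotubes received no serum deprivation, whereas BMP4-treated MuSK-null myoblasts were deprived of serum for 4 h before the treatment. Stage, temperature, T antigen activity, serum, embryo extract and interferon-γ changed together and cannot be told apart. Each genotype is 1 line, so genotype and line cannot be told apart either. The labels number the 3 samples of a group as biological replicates without saying whether they were separate cultures, so the p-values rest on a spread that may be technical.

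Myoblasts are proliferating muscle precursors. On serum withdrawal they leave the cell cycle, switch on the transcription factor myogenin and its MEF2 partners, fuse into multinucleated myotubes and build sarcomeres, the contractile units, together with the membranes that couple excitation to calcium release. Large T antigen binds the retinoblastoma and p53 proteins and holds cells in cycle, so that lines of this kind are shifted to a warmer temperature to inactivate it. MuSK is the receptor tyrosine kinase of the muscle side of the neuromuscular synapse, where it clusters acetylcholine receptors, and it has also been described as a BMP co-receptor.

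Values are log2 signals per probe set, and a difference of 1 is a 2-fold difference in signal. The change of a gene is its mean log2 signal in myotubes minus that in myoblasts of the same line and treatment, with its standard error (SE) from the fit to all arrays. Calls were made where the adjusted p was under 0.05 (limma, Benjamini-Hochberg over 19938 genes), and rose or fell is written of called genes only. Gene signals had medians of 7.89 in MuSK-null myotubes and 7.84 in MuSK-null myoblasts, with lower quartiles of 6.32 and 6.30. The table holds no detection calls, so whether a signal under the lower quartile lay above background was not tested. In 4 myoblast arrays, 1 per myoblast group and among them replicate 2 of the untreated MuSK-null myoblasts, deviations from the group mean ran together with correlations of 0.42 to 0.54 across genes. Without these arrays 8247 genes were called in MuSK-null differentiation, against 8287 with them.

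Musk, the gene deleted in the line, has 1 probe set among those used. It read 11.17, 11.24 and 11.24 in MuSK-null myotubes, against 10.93, 10.69 and 10.94 in MuSK-null myoblasts. In the wild-type line it was 12.72, 12.69 and 12.76 in myotubes, against 11.63, 11.50 and 11.58 in myoblasts. The MuSK-null signal was lower at both stages but well above the median gene. The sources used here give neither the exons that the probe set covers nor the part of the gene that is missing, so it does not check the genotype. Musk rose by 0.36 ± 0.07 (SE) in the MuSK-null line and by 1.15 in the wild-type line, and the difference of -0.79 was called (adjusted p = 1.8e-06).

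The 12 markers that define skeletal muscle had median signals of 12.87 to 12.92 in MuSK-null myotubes and 11.19 to 11.27 in MuSK-null myoblasts. The medians over all genes were 7.89 and 7.84. Not all markers were high in MuSK-null myoblasts, where Actn2 and Myf6 averaged 7.62 and 7.81. Of the 12 markers, 11 rose and 1, Myf5, fell. Their summed linear signal was 110000 to 111000 in MuSK-null myotubes, against 24400 to 27500 in MuSK-null myoblasts. Summed signals were 1090 to 1180 in MuSK-null myotubes, against 1020 to 1080 in MuSK-null myoblasts, for 10 endothelial markers, and 894 to 979 against 1050 to 1110 for 10 macrophage and leukocyte markers. The endothelial marker Pecam1 (6.56 to 6.73 in MuSK-null myotubes) and the leukocyte marker Ptprc (5.72 to 6.08) lay near or below the lower quartile. Among 12 fibroblast markers 4 rose, Lum, Dcn, Fap and Col3a1, and 4 fell, S100a4, Pdgfra, Pdgfrb and Fbln1. Their summed signal was 27300 to 29200 in MuSK-null myotubes, against 31800 to 33400 in MuSK-null myoblasts. In MuSK-null myoblasts the fibroblast sum was thus above that of the skeletal muscle markers. Of the smooth muscle markers 5 of 9 rose and 1 fell, and of the endothelial markers 2 of 10 rose and 0 fell. The smooth muscle markers summed to 22300 to 22600 in MuSK-null myotubes, against 20700 to 21500 in MuSK-null myoblasts. Among macrophage markers 1 of 10 rose and 3 fell, and among adipocyte markers 0 of 10 rose and 3 fell. Osteoblast markers had 1 of 6 higher and 2 lower, and chondrocyte markers 0 of 10 and 5. Neural markers had 0 of 9 and 1, and epithelial markers 0 of 10 and 2. Over all genes tested 18.2% rose and 23.4% fell, and several of these counts lay near those shares. Many fibroblast markers are also made by myogenic cells in culture, and their part in the results below was not tested. In bulk RNA, more cells of a type and more RNA per cell cannot be told apart.

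Differentiation moved a large share of the transcriptome in the MuSK-null line. In all 8287 of 19938 genes (41.6%) were called, of which 3623 rose (18.2% of genes tested) and 4664 fell (23.4%). At least a 2-fold change was seen for 744 genes that rose and 598 that fell. The rises reached further: 51 genes rose by at least 16-fold and 0 fell by as much, with changes between -3.94 and 6.25. The median over all genes was -0.01, so the list medians below need no shift. Of the 25 gene lists, those for the sarcomere, calcium handling and the mitochondrial respiratory chain rose almost whole, and those for mitosis, DNA replication and cholesterol and fatty acid synthesis fell almost whole.

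**Figure D1:**
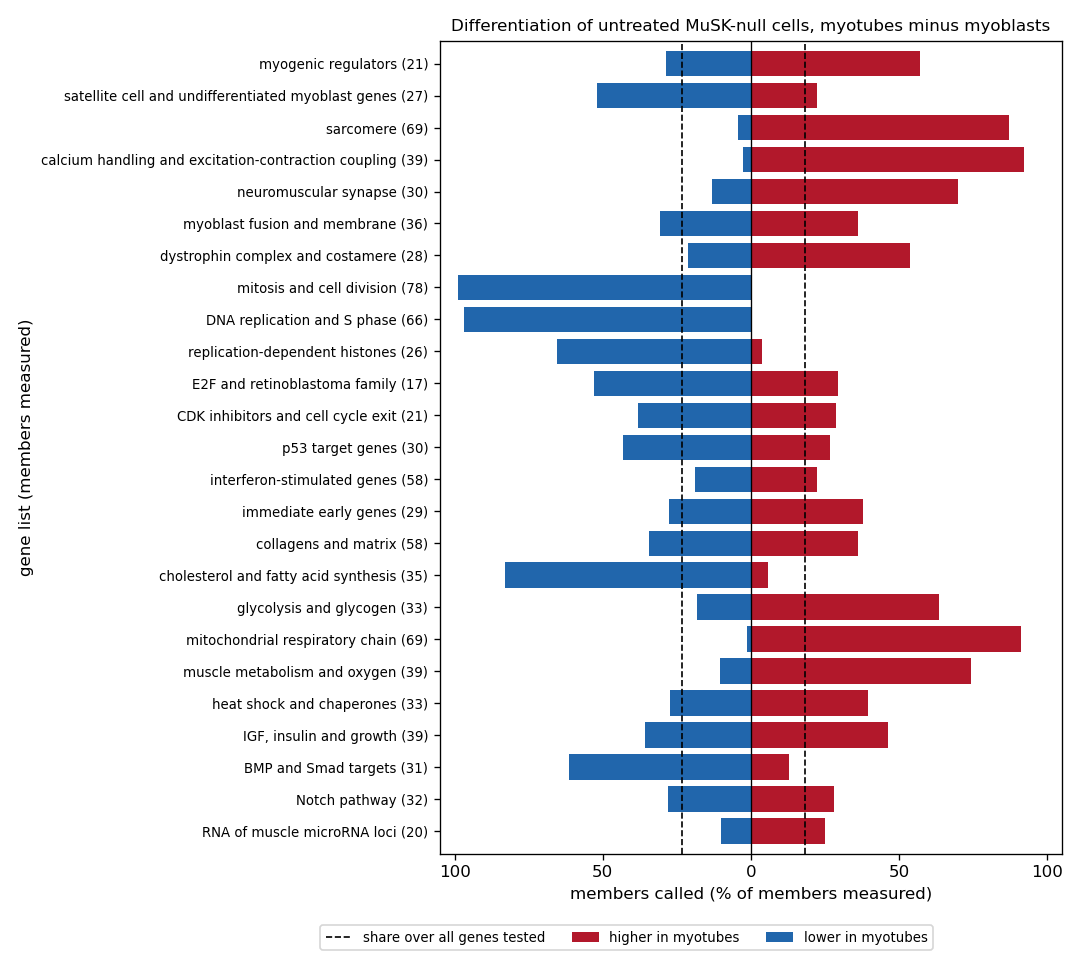
For each of 25 gene lists, the share of measured members that rose (right of 0, in percent) or fell (left of 0, in percent) in MuSK-null myotubes relative to MuSK-null myoblasts, with the number of members measured in parentheses. Dashed lines mark the shares over all genes tested, 18.2% higher and 23.4% lower. The sarcomere and calcium bars reach far right of the dashed line, and the mitosis and DNA replication bars lie wholly on the left.

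Most transcription factors of the muscle programme rose. Of 21 myogenic regulators measured, 12 rose, 6 fell and 3 were not called, with a median change of 0.58 against -0.01 over all genes. Myog, the myogenin gene, had signals of 12.37, 12.43 and 12.37 in MuSK-null myotubes, against 10.03, 10.00 and 9.84 in MuSK-null myoblasts. All myotube arrays lay above all myoblast arrays, and the change was 2.43 ± 0.07 (SE, adjusted p = 8.5e-19), a 5.39-fold rise. Myod1, the determination factor upstream of Myog, was already at 11.43 to 11.54 in MuSK-null myoblasts and rose by 1.06. Myf6, a late member of the same family, rose by 4.07, and Mef2c, whose protein works with myogenin on muscle promoters, by 3.70. Smyd1, a methyltransferase needed for sarcomere assembly, rose by 3.00, Tead4 by 2.33 and Klf5 by 2.22.

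Myf5, the family member typical of proliferating myoblasts, went the other way. Its signal was 10.56, 10.46 and 10.44 in MuSK-null myotubes, against 12.30, 12.11 and 12.35 in MuSK-null myoblasts, a fall by 1.76 on the log2 scale. The E-protein genes Tcf3 and Tcf12, whose products pair with the MyoD family, fell by 0.84 and 0.32, and the transcriptional cofactor gene Eya1 by 0.81. Among 27 genes of satellite cells and undifferentiated myoblasts, 14 fell, 6 rose and 7 were not called, with a median of -0.24. Met, the receptor for hepatocyte growth factor, fell by 2.79, and Vcam1, an adhesion molecule of satellite cells, by 1.68. Pax7, the defining satellite cell factor, was at 6.98 to 7.38 in MuSK-null myotubes, against 7.20 to 7.30 in MuSK-null myoblasts, and was not called (adjusted p = 0.99). Spry1, a brake on growth factor signalling linked to satellite cell quiescence, rose by 2.54, and the integrin gene Itga7 by 1.52.

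**Figure D2:**
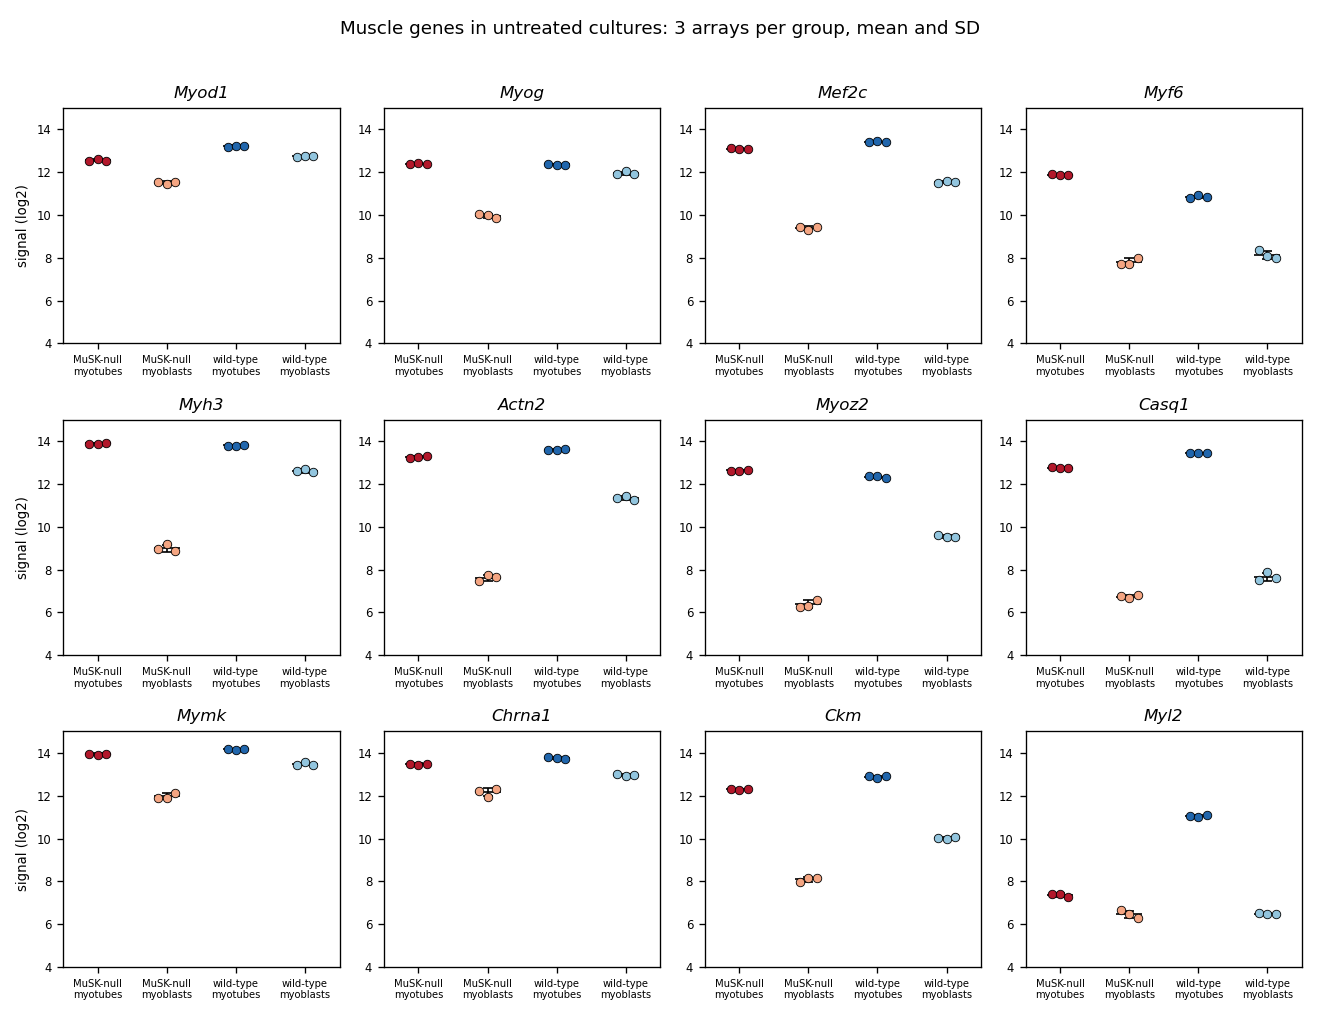
Log2 signal (y axis) of 12 muscle genes in untreated MuSK-null myotubes, MuSK-null myoblasts, wild-type myotubes and wild-type myoblasts (x axis), with 1 point per array and bars for the mean and SD of 3 arrays. Myog, Mef2c, Actn2 and Myh3 stand much lower in MuSK-null myoblasts than in the other 3 groups, whereas Myl2 is high in wild-type myotubes only, at 11.02 to 11.12 against 7.26 to 7.42 in MuSK-null myotubes.

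The sarcomere genes made up the strongest rise. Of 69 measured members of 70, 60 rose, 3 fell and 6 were not called, and the median change was 2.68. MuSK-null myotubes had a median signal over the list of 11.69 to 11.72, against 7.98 to 8.03 in MuSK-null myoblasts. The 3 members that rose most were Myoz2, Smpx and Actn2, and their promoters (300 bases, RefSeq, GRCm38.p6, 250 before and 50 after the start) are shown because these genes changed most in the list. Capitals mark CANNTG, the E-box bound by the MyoD family, and the MEF2 consensus, both searched on both strands.
Myoz2, chr3:123034938-123035237, minus strand: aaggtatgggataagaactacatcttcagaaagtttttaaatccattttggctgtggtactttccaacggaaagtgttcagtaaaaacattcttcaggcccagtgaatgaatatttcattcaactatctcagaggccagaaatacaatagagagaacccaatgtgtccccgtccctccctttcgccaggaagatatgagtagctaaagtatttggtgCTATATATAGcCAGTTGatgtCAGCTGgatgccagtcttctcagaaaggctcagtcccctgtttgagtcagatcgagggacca
Smpx, chrX:157698723-157699022, plus strand: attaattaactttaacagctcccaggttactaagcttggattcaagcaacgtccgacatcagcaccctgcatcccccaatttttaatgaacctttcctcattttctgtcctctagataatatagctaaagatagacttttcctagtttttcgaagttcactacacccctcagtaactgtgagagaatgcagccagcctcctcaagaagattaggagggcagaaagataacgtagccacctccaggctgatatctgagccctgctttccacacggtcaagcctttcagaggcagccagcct
Actn2, chr13:12340683-12340982, minus strand: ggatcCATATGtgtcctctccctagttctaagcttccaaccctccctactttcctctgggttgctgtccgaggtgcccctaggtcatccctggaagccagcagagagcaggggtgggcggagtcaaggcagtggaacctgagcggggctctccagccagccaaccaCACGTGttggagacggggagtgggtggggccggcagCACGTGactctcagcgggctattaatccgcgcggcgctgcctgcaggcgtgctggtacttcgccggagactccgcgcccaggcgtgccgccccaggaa
The Myoz2 window holds a MEF2 consensus match beginning 33 bases before the start, followed by CANNTG matches at 22 and 12 bases before it, the second of them CAGCTG. Actn2 has 3 CANNTG matches and no MEF2 match, and Smpx has neither.

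E-boxes are common by chance in windows of this length. CANNTG was found in 89.1% of 55 sarcomere promoters with an entry in the table, against 68.0% of 15614 promoters of genes tested. The narrower CAGCTG, one form of CANNTG, was found in 41.8% of sarcomere promoters, against 15.9% of all. The MEF2 consensus was found in 20.0%, against 2.63%. A match describes the letters in the window and not a bound site.

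Myoz2, whose product calsarcin-1 sits at the Z-disc, had signals of 12.59, 12.62 and 12.67 in MuSK-null myotubes, against 6.23, 6.31 and 6.59 in MuSK-null myoblasts. That change of 6.25 ± 0.10 (SE), or 76.1-fold, was the largest of all genes tested. Smpx, a small muscle protein, rose by 5.68. Actn2, the α-actinin of the Z-disc, had signals of 13.21, 13.24 and 13.29 in MuSK-null myotubes, against 7.46, 7.74 and 7.66 in MuSK-null myoblasts. It rose by 5.62 ± 0.07, or 49.3-fold (adjusted p = 1.1e-23). The thin-filament gene Lmod2 rose by 5.35 and the fast troponin C gene Tnnc2 by 5.16.

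The myosin heavy chains rose in an uneven way. Myh3, the embryonic form, was at 13.88, 13.87 and 13.93 in MuSK-null myotubes, against 8.95, 9.18 and 8.87 in MuSK-null myoblasts, and rose by 4.90. Myh8, the perinatal form, rose by 5.11. The adult fast forms Myh1, Myh4 and Myh2, named after their values were seen, rose by 4.58, 3.44 and 1.53. These genes lie side by side and are close in sequence, and whether a probe set separates all of them was not tested. Acta1, skeletal α-actin, was at 11.16 to 11.23 in MuSK-null myoblasts already and rose by 2.95.

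A few sarcomere genes did not follow. Tpm3, Tnni3 and Ankrd1 were the 3 that fell, by 0.55, 0.38 and 0.30. Ankrd1 rose by 0.82 in untreated wild-type and by 1.12 in BMP4-treated MuSK-null cells, whereas Tpm3 and Tnni3 fell in both. The Tpm3 value rests on 1 probe set, and the mean over all probe sets of the gene gave 0.12, which was not called. Xirp2, Nebl, Mybpc3, Tpm1, Myl3 and Myh13 were the 6 not called, with changes between -0.01 and 0.28. Tnni3, Mybpc3 and Myl3 are known mainly from heart or slow muscle.

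Genes of calcium handling and excitation-contraction coupling rose with the sarcomere. Of 39 measured, 36 rose, 1 fell and 2 were not called, with a median of 1.53. Casq1, the calcium-storing calsequestrin of fast muscle, had signals of 12.79, 12.73 and 12.74 in MuSK-null myotubes, against 6.75, 6.66 and 6.80 in MuSK-null myoblasts, a change of 6.02 ± 0.08 and 65.0-fold. Its paralogue Casq2 rose by 4.96. Cacna1s, the voltage sensor of the T-tubule, rose by 4.66, Atp2a1, the calcium pump SERCA1, by 4.43, triadin (Trdn) by 4.24 and sarcalumenin (Srl) by 4.11. Asph was the 1 member that fell, by 0.45. Ryr2, the cardiac release channel, and Sln, the pump regulator sarcolipin, were not called, with changes of 0.00 and 0.25. The parvalbumin gene Pvalb, a calcium buffer of adult fast fibres, rose by only 0.59.

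Synaptic genes, the class to which Musk belongs, also rose in the main. Of 30 neuromuscular synapse genes measured, 21 rose, 4 fell and 5 were not called, with a median of 0.44. Chrna1, the α subunit of the acetylcholine receptor, was at 13.48, 13.45 and 13.50 in MuSK-null myotubes, against 12.22, 11.96 and 12.31 in MuSK-null myoblasts, and rose by 1.31. The δ and fetal γ subunits, Chrnd and Chrng, rose by 1.39 and 1.58. Chrne, the adult ε subunit, stayed at 6.72 to 6.87 in MuSK-null myotubes, against 6.64 to 6.89 in MuSK-null myoblasts, and was not called. Erbb3 and Erbb2, the receptors for neuregulin, rose by 4.11 and 1.48, while the neuregulin gene Nrg1 was 2.83-fold lower. Dok7, the adaptor that activates MuSK, rose by 1.49, and Lama4, a laminin chain of the synaptic basement membrane, by 3.41.

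Fusion and membrane genes split. Of 36 measured, 13 rose, 11 fell and 12 were not called, with a median of -0.04. The fusogens rose: Mymk, or myomaker, was at 13.96, 13.89 and 13.95 in MuSK-null myotubes, against 11.91, 11.91 and 12.13 in MuSK-null myoblasts, a change of 1.95. Mymx, or myomixer, rose by 2.45, and Cav3, the muscle caveolin, by 3.33. Among the genes that fell, Itga3 fell by 1.45, the adhesion gene Kirrel by 1.19, N-cadherin (Cdh2) by 1.06 and myoferlin (Myof) by 0.89. Of 28 genes of the dystrophin complex and costamere, 15 rose and 6 fell, with a median of 0.36. The sarcoglycan genes Sgcd and Sgca rose by 2.43 and 2.23, Sntb1 by 2.00 and Dmd, dystrophin itself, by 1.57. Utrn, its relative utrophin, was not called, with a change of 0.03.

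Energy metabolism shifted with the contractile genes. Of 39 genes of muscle metabolism and oxygen handling, 29 rose and 4 fell, with a median of 1.18. Ckm, the muscle creatine kinase, had signals of 12.29, 12.28 and 12.30 in MuSK-null myotubes, against 7.95, 8.18 and 8.15 in MuSK-null myoblasts, a rise of 4.19. Myoglobin (Mb) rose by 4.47, the fatty acid transporter gene Cd36 by 4.78 and the muscle glycogen phosphorylase gene Pygm by 4.78. Of 33 glycolysis and glycogen genes, 21 rose and 6 fell, among them Pgam2, which rose by 4.17, and the insulin-responsive glucose transporter Slc2a4, which rose by 2.71. The brain-type forms Aldoc and Pygb fell by 1.11 and 0.74.

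Of 69 genes of the mitochondrial respiratory chain, 63 rose and 1 fell, and 24 of the rises reached 1.5-fold. Their median change was only 0.52, and the largest were muscle forms of cytochrome oxidase subunits: Cox8b at 4.66, Cox6a2 at 3.81 and Cox7a1 at 2.64. Cox6a1, the form of the subunit found outside striated muscle, was the 1 that fell, by 0.27, a call lost when any of 5 arrays was left out. Cholesterol and fatty acid synthesis ran opposite: of 35 genes, 29 fell, 2 rose and 4 were not called, with a median of -0.74. Lss, lanosterol synthase, was at 10.25, 10.37 and 10.18 in MuSK-null myotubes, against 12.13, 12.22 and 12.20 in MuSK-null myoblasts, and fell by 1.91. Hsd17b7 and Stard4 each fell by 1.41, Elovl6 by 1.30 and Acly by 1.26. Dhcr7 and Acacb were the 2 that rose, by 0.46 and 0.21, and the Acacb call was lost in 8 of the alternatives tried.

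Cell division genes fell almost as a block. Of 78 mitosis genes measured, 77 fell, 0 rose and 1, Pttg1, was not called, and the median change was -1.58. MuSK-null myotubes had a median signal over the list of 8.84 to 8.99, against 10.44 to 10.59 in MuSK-null myoblasts, so the genes were lower but not at the bottom of the scale. Promoters of 3 of the members that fell most and have a table entry, Kif2c, Cdc20 and Bub1b, are shown with TTTGAA, the core of the cell cycle homology region, and CCAAT, the NF-Y box, in capitals on either strand.
Kif2c, chr4:117178723-117179022, minus strand: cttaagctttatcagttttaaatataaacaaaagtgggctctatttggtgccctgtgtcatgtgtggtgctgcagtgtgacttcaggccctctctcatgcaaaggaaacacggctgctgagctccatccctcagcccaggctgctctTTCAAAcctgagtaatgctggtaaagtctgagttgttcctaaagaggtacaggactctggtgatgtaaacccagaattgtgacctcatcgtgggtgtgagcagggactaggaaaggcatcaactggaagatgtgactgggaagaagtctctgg
Cdc20, chr4:118437294-118437593, minus strand: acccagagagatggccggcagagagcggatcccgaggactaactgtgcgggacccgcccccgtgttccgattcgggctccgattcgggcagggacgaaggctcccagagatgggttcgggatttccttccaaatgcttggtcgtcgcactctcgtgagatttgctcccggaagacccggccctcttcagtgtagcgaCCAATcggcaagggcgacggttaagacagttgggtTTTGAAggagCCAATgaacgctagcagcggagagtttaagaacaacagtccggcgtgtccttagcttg
Bub1b, chr2:118597961-118598260, plus strand: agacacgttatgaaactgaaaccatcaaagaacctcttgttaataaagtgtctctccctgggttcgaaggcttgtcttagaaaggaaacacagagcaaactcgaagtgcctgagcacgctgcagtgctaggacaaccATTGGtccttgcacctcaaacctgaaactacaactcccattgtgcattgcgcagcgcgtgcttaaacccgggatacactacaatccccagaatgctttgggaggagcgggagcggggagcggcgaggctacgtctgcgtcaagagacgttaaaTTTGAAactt
In the Cdc20 window TTTGAA begins 18 bases before the start, and CCAAT matches begin 53 and 8 bases before it. Kif2c holds TTTGAA without CCAAT, and Bub1b holds 1 of each.

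Over the 66 mitosis promoters in the table, 68.2% held TTTGAA, against 15.2% of all 15614 promoters, and 72.7% held CCAAT, against 38.2%. Both motifs stood together in 56.1% of mitosis promoters, against 6.12% of all. In sarcomere promoters the shares were 7.27% for TTTGAA and 30.9% for CCAAT. These too are counts of letters and not of bound sites.

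Cdc20, the activator of the anaphase-promoting complex, had signals of 9.23, 9.36 and 9.03 in MuSK-null myotubes, against 11.31, 11.46 and 11.21 in MuSK-null myoblasts, and fell by 2.12. Cdc25c, the phosphatase that starts mitosis, fell by 2.31, the kinesins Kif2c and Kif20a by 2.24 and 2.13, and the checkpoint kinase gene Bub1b fell by 2.11. Mki67, the proliferation antigen, was at 10.70, 10.73 and 10.76 in MuSK-null myotubes, against 11.95, 11.98 and 11.98 in MuSK-null myoblasts. Mki67 fell by 1.24 ± 0.08, and the mitotic kinase gene Cdk1 by 1.28. The myotube signals of both genes remained above the upper quartile of all genes, 9.77. Pttg1, the securin gene, was at 9.84, 9.74 and 9.83 in MuSK-null myotubes, against 9.85, 9.85 and 9.84 in MuSK-null myoblasts (adjusted p = 0.61).

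Of 66 genes of DNA replication and S phase, 64 fell, 0 rose and 2 were not called, with a median of -0.85. Dbf4, the partner of the kinase that fires replication origins, fell by 1.73, thymidine kinase (Tk1) by 1.62 and the clamp loader gene Rfc3 by 1.56. Pcna and Mcm2, named after their values were seen, fell by 0.47 and 0.35. Rpa2 and the histone chaperone gene Asf1b were the 2 not called. Asf1b was at 11.81, 11.76 and 11.75 in MuSK-null myotubes, against 11.86, 11.92 and 11.85 in MuSK-null myoblasts. Of 26 replication-dependent histone genes, 17 fell and 1, H2bc21, rose, with a median of -0.37.

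**Figure D3:**
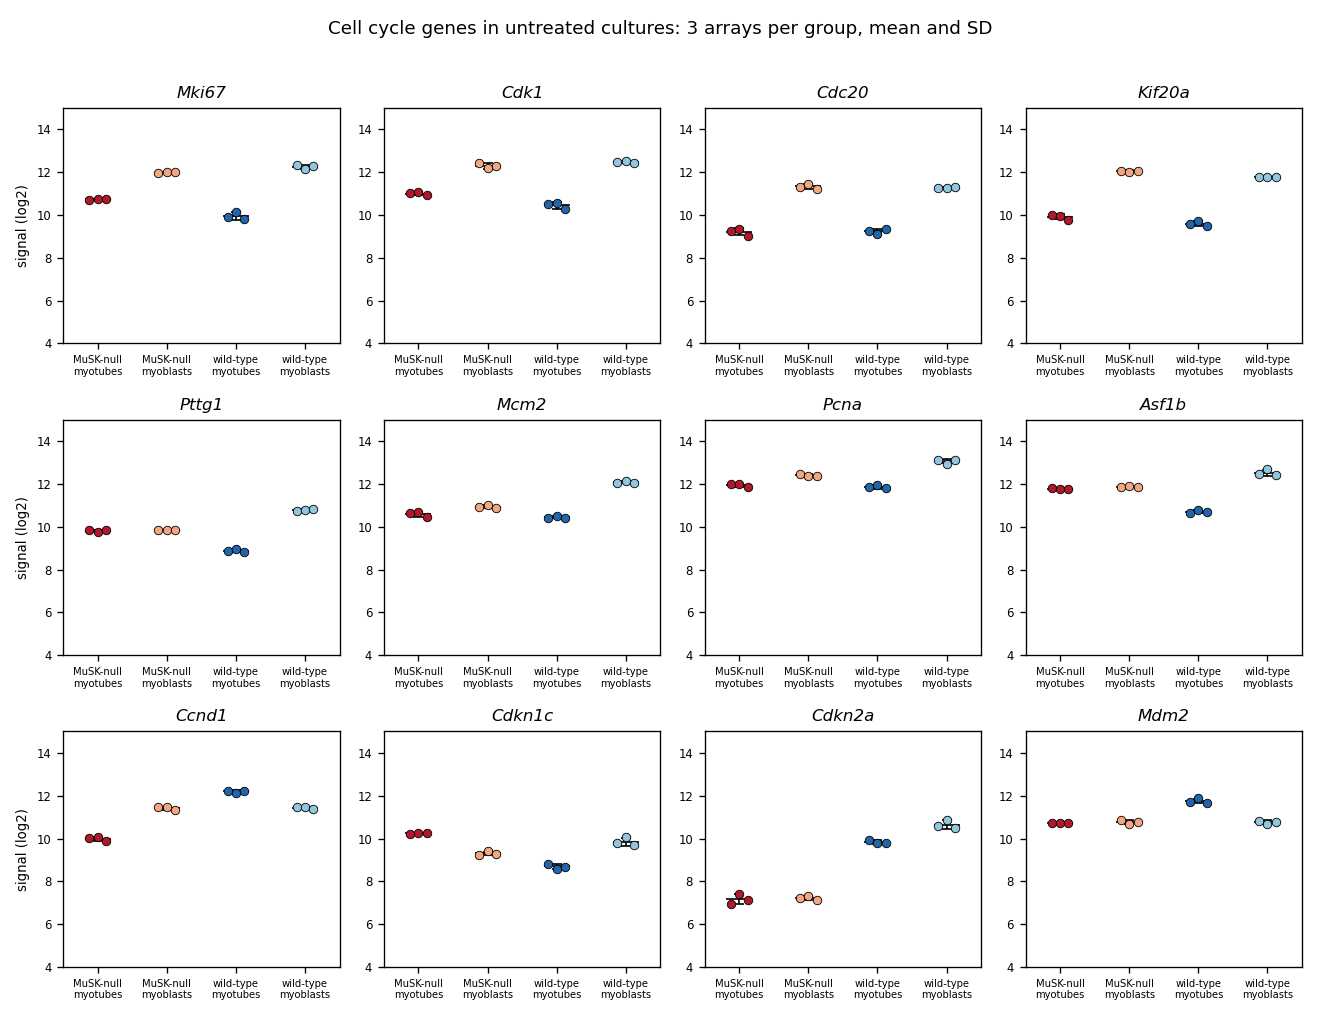
Log2 signal (y axis) of 12 genes of the cell cycle and its control in untreated MuSK-null myotubes, MuSK-null myoblasts, wild-type myotubes and wild-type myoblasts (x axis), with 1 point per array and bars for the mean and SD of 3 arrays. Cdc20 and Kif20a are about equally lower in the myotubes of both lines, whereas Pttg1 and Asf1b are lower in wild-type myotubes alone and Ccnd1 is lower in MuSK-null myotubes alone.

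Regulators of cell cycle exit moved in both directions. In the E2F and retinoblastoma family, 9 of 17 genes fell and 5 rose. Rb1, the retinoblastoma gene, rose by 0.78 and its relative Rbl1 fell by 0.86, while E2f2 rose by 1.44 and the repressor E2f7 fell by 1.07. Among 21 genes of CDK inhibitors and cell cycle exit, 6 rose and 8 fell, with a median of -0.04. Cdkn1c, the inhibitor p57, was at 10.22, 10.27 and 10.24 in MuSK-null myotubes, against 9.25, 9.40 and 9.30 in MuSK-null myoblasts, and rose by 0.93. Cyclin D1 (Ccnd1) fell by 1.44, while cyclin D3 (Ccnd3), the D cyclin typical of myotubes, rose by 0.98. Cdkn2a, which encodes p16 and p19ARF, was at 6.96 to 7.43 in MuSK-null myotubes, against 7.11 to 7.34 in MuSK-null myoblasts, and was not called. Cdkn1a, the p21 gene, was not analysed here.

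The p53 targets showed no common direction: of 30 measured, 8 rose, 13 fell and 9 were not called, with a median of -0.01. Pmaip1, a death-promoting target, rose by 1.80, and Gtse1 and Psrc1, which are also cell cycle genes, fell by 1.53 and 1.36. Mdm2, the gene whose product degrades p53, was at 10.74, 10.74 and 10.71 in MuSK-null myotubes, against 10.87, 10.66 and 10.78 in MuSK-null myoblasts, and was not called (adjusted p = 0.72).

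The Id genes, whose products sequester E-proteins and so hold back MyoD, fell steeply in untreated MuSK-null cells. Id1 was at 9.19, 9.18 and 8.95 in MuSK-null myotubes, against 10.59, 10.71 and 10.56 in MuSK-null myoblasts. Id2 was at 9.17, 9.44 and 9.07 in MuSK-null myotubes, against 11.75, 11.71 and 11.64 in MuSK-null myoblasts, and Id3 at 8.61, 8.62 and 8.48, against 11.02, 10.96 and 10.97. For each gene the groups did not overlap, and the falls of Id1, Id2 and Id3 were 1.51, 2.47 and 2.42 on the log2 scale, with SE of 0.07 to 0.09. Id4, at 7.03 to 7.06 in MuSK-null myotubes and 6.97 to 7.15 in MuSK-null myoblasts, was not called.

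The Id genes belong to a list of 31 BMP and Smad targets, of which 19 fell, 4 rose and 8 were not called, with a median of -0.42. Atoh8, a transcription factor gene induced by BMP in other cells, fell by 2.45, the BMP antagonist gene Grem1 by 2.10 and the inhibitory Smad gene Smad6 by 1.27. Hey1 and Heyl, which respond to both Notch and BMP, rose by 2.32 and 1.20. Hey1 was at 10.10, 10.11 and 10.09 in MuSK-null myotubes, against 7.91, 7.66 and 7.76 in MuSK-null myoblasts. Of 32 Notch pathway genes, 9 rose and 9 fell. The ligand gene Jag1 rose by 1.48 and Dtx4 by 1.47, while the glycosyltransferase gene Lfng fell by 2.09 and the receptor gene Notch2 by 1.15.

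Among 39 genes of IGF, insulin and growth control, 18 rose and 14 fell. Igfbp3, a binding protein for insulin-like growth factors, was at 11.47, 11.34 and 11.38 in MuSK-null myotubes, against 7.50, 7.31 and 7.32 in MuSK-null myoblasts, a rise of 4.02. Fst, the myostatin antagonist follistatin, rose by 3.34 and myostatin itself (Mstn) by 1.20. Trim63, the ubiquitin ligase MuRF1 of the sarcomere, rose by 3.40. Hgf, the ligand of Met, fell by 2.52 and so did its receptor, as given above. Grb10, an adaptor of insulin signalling, was at 12.86 to 12.90 in MuSK-null myotubes, against 12.70 to 12.89 in MuSK-null myoblasts, and was not called.

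The matrix list moved both ways, with 21 of 58 genes higher, 20 lower and a median of 0.02. Periostin (Postn) was at 13.12, 13.11 and 13.14 in MuSK-null myotubes, against 9.31, 9.08 and 9.30 in MuSK-null myoblasts, a rise of 3.89. Lumican (Lum) rose by 3.87, starting from 4.29 to 4.47 in MuSK-null myoblasts, far below the lower quartile, and decorin (Dcn) by 1.71. Thrombospondin 1 (Thbs1) fell by 1.75 and the basement membrane genes Nid2 and Nid1 by 1.57 and 0.99. Col1a1, the main fibrillar collagen gene, was not called, with a change of 0.03. Lum and Dcn are themselves on the fibroblast list above, whose other members went either way.

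Lists tied to the switch of temperature, serum and interferon-γ had members called in both directions. Of 33 heat shock and chaperone genes, 13 rose and 9 fell, with a median of 0.11. The largest rises were of small heat shock proteins of muscle: Hspb7 at 3.78, Hspb3 at 1.86 and Hspb2 at 1.84. The general chaperone genes Hspa8 and Hspa5 were not called, with changes of 0.08 and 0.02. Rbm3, which is induced by cold, fell by 0.71 in MuSK-null and 0.91 in wild-type cells, and the part of temperature was not tested. Of 29 immediate early genes, which respond to serum, 11 rose and 8 fell. Nr4a1 rose by 1.20 and Fosl1 fell by 1.00. Of 58 interferon-stimulated genes, 13 rose, 11 fell and 34 were not called after interferon-γ was left out, with a median of 0.05. The shares of this list that rose and fell lay near those over all genes tested, 18.2% and 23.4%. The antigen-presentation genes Tapbp, Psme1 and Tap1 fell by 0.84, 0.64 and 0.55, and Oasl2 rose by 1.24.

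Beyond the lists, the largest rises included Padi2, a peptidylarginine deiminase gene, at 5.49, the actin-binding gene Ablim3 at 5.34, Tmem182 at 5.02, Mlip at 4.91 and the muscle APOBEC family gene Apobec2 at 4.84. The largest falls were of other kinds. Nqo1, a quinone reductase of the oxidative stress response, was at 7.73, 7.91 and 7.66 in MuSK-null myotubes, against 11.64, 11.79 and 11.69 in MuSK-null myoblasts. It fell by 3.94 ± 0.10, or 15.3-fold. Aldh1a7, an aldehyde dehydrogenase gene, fell by 3.54, Sprr1a fell by 3.43, the water channel gene Aqp1 fell by 3.24 and Rab3b, a regulator of vesicle release, fell by 3.04. Also among the 20 largest were the sodium channel gene Scn9a, which fell by 2.89, Gpnmb by 2.77, Cyp1b1 by 2.68, the chemokine gene Cxcl12, which fell by 2.67, and the secreted Wnt modulator gene Sfrp2 by 2.53.

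RNA from microRNA loci was measured for 20 genes, 12 of them with signals under the lower quartile at each stage. Of the 20, 5 rose (25.0%), 2 fell (10.0%) and 13 were not called, against 18.2% and 23.4% over all genes tested. Such a probe set reads RNA of the locus and not necessarily the mature microRNA. Of the 7 called loci, 4 had a mature sequence in the RefSeq table (GRCm38.p6), shown to identify the products by their seeds, bases 2 to 8 in capitals.
mmu-miR-206-3p, chr1:20679055-20679076, plus strand: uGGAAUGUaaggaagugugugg
mmu-miR-206-5p, chr1:20679017-20679039, plus strand: aCAUGCUUcuuuauauccucaua
mmu-miR-1a-1-5p, chr2:180389057-180389079, plus strand: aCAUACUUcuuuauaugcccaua
mmu-miR-18a-5p, chr14:115043867-115043889, plus strand: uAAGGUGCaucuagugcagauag
mmu-miR-18a-3p, chr14:115043908-115043929, plus strand: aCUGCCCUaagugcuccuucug
mmu-miR-19a-3p, chr14:115044048-115044070, plus strand: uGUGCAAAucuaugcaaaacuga
miR-1a-3p and the products of Mir133a-2, Mir145a and Mir378a have no entry in the table.

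Mir206, a muscle-specific locus, was at 9.93, 9.89 and 9.54 in MuSK-null myotubes, against 7.85, 7.76 and 7.82 in MuSK-null myoblasts, and rose by 1.98. Mir133a-2 and Mir1a-1, also muscle-specific, rose by 1.16 and 1.06, at signals of 4.64 to 6.38 in MuSK-null myotubes. Mir18 and Mir19a, of a cluster known from proliferating cells, fell by 0.52 and 0.54. Without the 30% of genes of lowest signal neither was tested, and without replicate 1 or replicate 2 of the MuSK-null myoblasts neither was called. The Mir19a groups overlapped, at 4.23 to 4.52 in MuSK-null myotubes and 4.47 to 5.19 in MuSK-null myoblasts, under the lower quartile.

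To see how far these changes were shared with the other line, the same contrast was computed for untreated wild-type cells, and the difference of changes, MuSK-null minus wild-type, was tested for every gene. In wild-type cells 8966 genes were called (45.0%), with 4048 higher (20.3%) and 4918 lower (24.7%). Of the genes that rose in the MuSK-null line 62.9% also rose in the wild-type line, which is 2280 genes or 56.3% of the wild-type rises. Of those that fell, 3019 fell in both, 64.7% of the MuSK-null and 61.4% of the wild-type falls. Opposite calls in the wild-type line were made for 299 of the MuSK-null rises (8.3%) and 404 of the falls (8.7%). Across the 19938 genes the changes had a Pearson r of 0.65 and a Spearman rho of 0.54. The 2 contrasts share no array, although genes are not independent and deviations of some myoblast arrays ran together across the lines. The difference was called for 5796 genes (29.1%), with 2980 changes more positive in the MuSK-null line (14.9%) and 2816 more negative (14.1%).

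**Figure D4:**
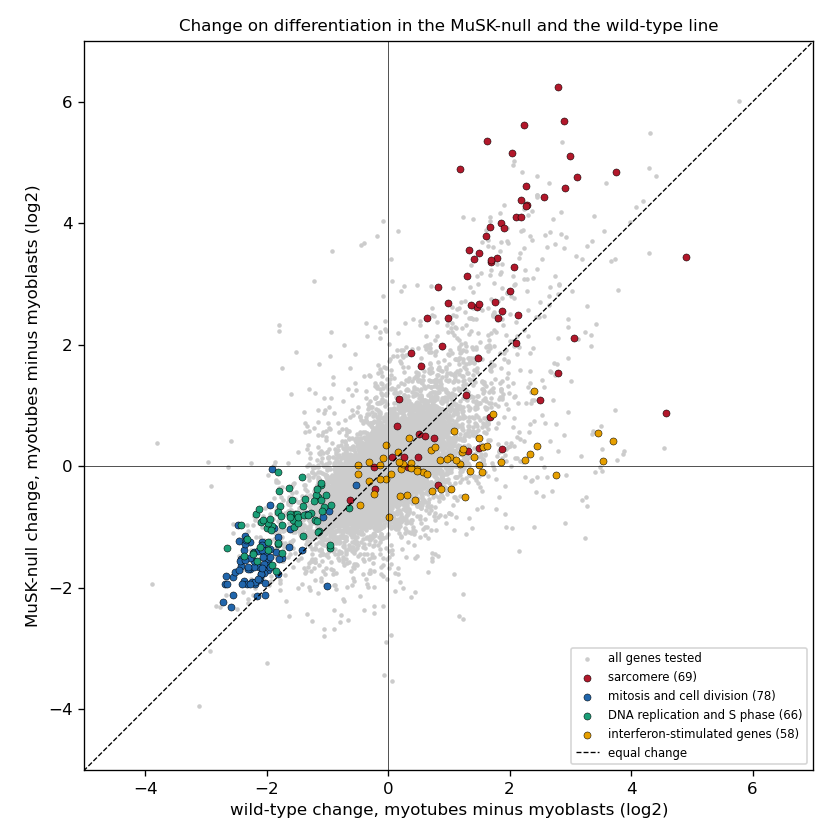
Change in untreated MuSK-null cells (y axis, log2 signal of myotubes minus myoblasts) against the same change in untreated wild-type cells (x axis), with 1 point per gene. The sarcomere, mitosis, DNA replication and interferon-stimulated gene lists are coloured. Most sarcomere genes lie above the diagonal in the upper right, and most mitosis genes lie above it in the lower left, at medians of 2.68 and -1.58 for MuSK-null against 1.67 and -2.13 for wild-type cells.

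The sarcomere rise was larger in the MuSK-null line. The median change was 2.68 in MuSK-null against 1.67 in wild-type cells, and the difference was positive and called for 45 of 69 genes and negative for 11. Median signals of the list were 11.69 to 11.72 in MuSK-null myotubes and 7.98 to 8.03 in MuSK-null myoblasts, against 12.29 to 12.36 in wild-type myotubes and 10.15 to 10.25 in wild-type myoblasts. The 2 lines lay further apart as myoblasts than as myotubes. Actn2 was at 13.57 to 13.63 in wild-type myotubes and 11.27 to 11.44 in wild-type myoblasts, so its difference was 3.38. The differences were 3.71 for Myh3, 3.72 for Lmod2, 3.46 for Myoz2 and 3.12 for Tnnc2. Myog and Mef2c followed, with differences of 2.03 and 1.84, and Casq2 and Erbb3 with 2.91 and 2.88.

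Some muscle genes rose far less in the MuSK-null line. Myl2, the ventricular and slow regulatory light chain, was at 7.42, 7.39 and 7.26 in MuSK-null myotubes and 6.64, 6.47 and 6.31 in MuSK-null myoblasts. In the wild-type line it was at 11.04, 11.02 and 11.12 in myotubes and 6.52, 6.46 and 6.48 in myoblasts. The lines started level and only the wild-type myotubes reached a high signal, which gave Myl2 a difference of -3.69. Cacna2d2, a calcium channel subunit, behaved likewise, with changes of 0.30 in MuSK-null and 4.55 in wild-type cells. Its MuSK-null call was lost in 7 of the alternatives tried, and its difference of -4.26 was not. Casq1 rose by 6.02 in MuSK-null and 5.78 in wild-type cells and the difference of 0.25 ± 0.11 (SE) was not called, and for Igfbp3 the changes were 4.02 and 3.99.

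Cell division genes fell less in the MuSK-null line. The difference was positive and called for 59 of 78 mitosis genes and 54 of 66 genes of DNA replication. Median changes were -1.58 in MuSK-null against -2.13 in wild-type cells for mitosis and -0.85 against -1.60 for replication. For mitosis the myotube arrays differed, with medians of 8.84 to 8.99 in MuSK-null and 8.36 to 8.47 in wild-type myotubes, while the myoblast medians overlapped. For replication the myoblast arrays differed, with 9.49 to 9.77 in MuSK-null and 10.30 to 10.35 in wild-type myoblasts. Mki67 had a difference of 1.04, Cdk1 of 0.76 and Pttg1 of 1.86, whereas Cdc20 and Kif20a, with -0.09 and 0.03, were not called.

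Cyclin D1 and p57 changed in opposite directions. Ccnd1 was at 9.88 to 10.05 in MuSK-null myotubes and 11.34 to 11.46 in MuSK-null myoblasts, against 12.14 to 12.24 in wild-type myotubes and 11.37 to 11.46 in wild-type myoblasts, a difference of -2.21. Cdkn1c rose in the MuSK-null line and fell by 1.15 in the wild-type line, a difference of 2.07. Cdkn2a was low in every MuSK-null array and at 9.78 to 9.95 in wild-type myotubes and 10.50 to 10.88 in wild-type myoblasts. The p53 targets rose in wild-type cells (17 of 30, 4 fell), and 19 of 30 had a negative called difference. For Mdm2 it was -1.03 and for Eda2r, another gene of the list, -1.76.

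The Id genes fell in the MuSK-null line alone or more steeply there. Id1 and Id2 rose in wild-type cells, by 0.44 and 1.16, and Id3 fell by 0.23, so the differences were -1.95, -3.63 and -2.19. Id1 signals of MuSK-null myotubes (8.95 to 9.19) and wild-type myotubes (9.03 to 9.20) overlapped, and the lines differed as myoblasts. For Id2 the lines differed at both stages, with means of 9.23 in MuSK-null and 11.64 in wild-type myotubes, and 11.70 and 10.48 in myoblasts. Id3 averaged 8.57 in MuSK-null and 9.09 in wild-type myotubes, and 10.98 and 9.32 in myoblasts. Grem1 and Hgf fell in the MuSK-null and rose in the wild-type line, both by 1.24, with differences of -3.35 and -3.76. Hey1 did the reverse, with a fall by 1.80 in wild-type cells and a difference of 4.12. At the myotube stage Hey1 was at 10.09 to 10.11 in MuSK-null and 8.06 to 8.11 in wild-type cells, and as myoblasts at 7.66 to 7.91 in MuSK-null and 9.55 to 10.08 in wild-type cells.

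**Figure D5:**
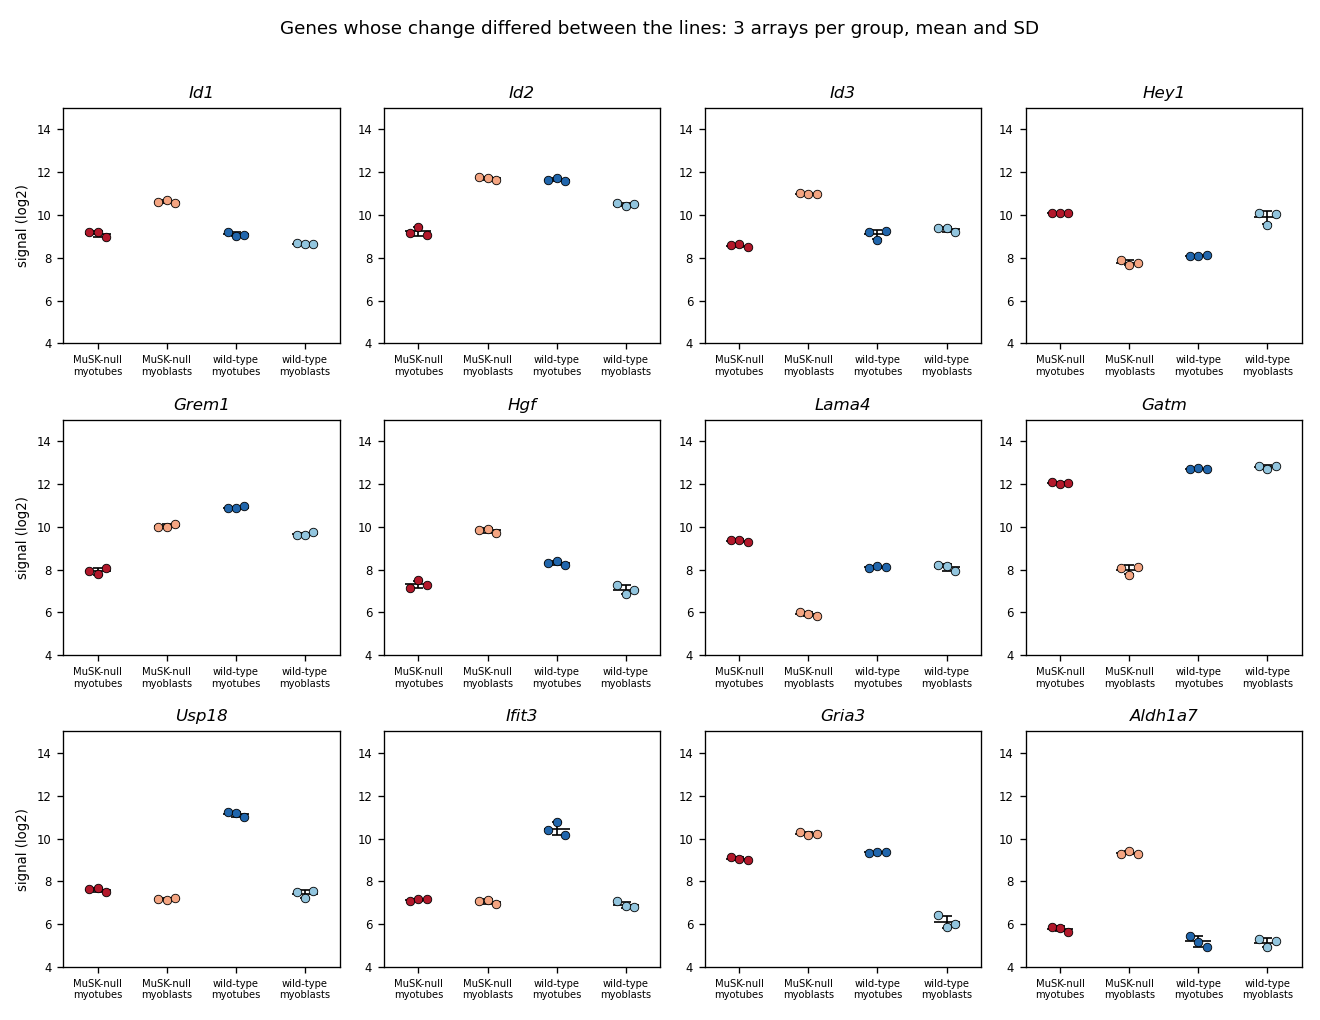
Log2 signal (y axis) of 12 genes whose change differed between the lines, in untreated MuSK-null myotubes, MuSK-null myoblasts, wild-type myotubes and wild-type myoblasts (x axis), with 1 point per array and bars for the mean and SD of 3 arrays. Id2, Grem1 and Hgf are lower in MuSK-null myotubes than in MuSK-null myoblasts and higher in wild-type myotubes than in wild-type myoblasts, Hey1 is the reverse, and Usp18 and Ifit3 are high in wild-type myotubes alone.

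Interferon-stimulated genes rose in wild-type cells, with 41 of 58 higher, 5 lower and a median of 0.76 against 0.05 in the MuSK-null line. The difference was negative and called for 40 of 58. Usp18 was at 7.64, 7.68 and 7.49 in MuSK-null myotubes and 7.17, 7.15 and 7.24 in MuSK-null myoblasts, against 11.22, 11.18 and 10.99 in wild-type myotubes and 7.50, 7.21 and 7.55 in wild-type myoblasts. The difference of Usp18 was -3.29, and that of Ifit3, an antiviral gene that was not called in the MuSK-null line, was -3.45. The list's median signal in myoblasts was 7.27 to 7.37 in the MuSK-null and 7.81 to 7.88 in the wild-type line.

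The largest differences over all genes belonged to genes that were far apart as myoblasts or myotubes. Fras1, a basement membrane gene, rose by 3.54 in the MuSK-null line and fell by 0.93 in the wild-type line, a difference of 4.47. Gatm, the first enzyme of creatine synthesis, had a mean of 12.03 ± 0.04 in MuSK-null myotubes and 7.99 ± 0.20 in MuSK-null myoblasts (SD, n = 3 each), against 12.68 to 12.72 in wild-type myotubes and 12.69 to 12.84 in wild-type myoblasts. The MuSK-null myotubes thus came near a level that wild-type cells held at both stages, a difference of 4.13 for Gatm. Lama4, with a difference of 3.37, averaged 9.34 in MuSK-null myotubes and 5.93 in MuSK-null myoblasts, against 8.14 in wild-type myotubes and 8.09 in wild-type myoblasts, so the MuSK-null myotubes lay above both wild-type groups. Nrk and Lum, with differences of 3.97 and 3.71, were higher in MuSK-null myotubes than in the other untreated groups. Lum averaged only 8.23 there. Gria3, a glutamate receptor gene, had the most negative difference, -4.42, since it fell by 1.18 in the MuSK-null and rose by 3.24 in the wild-type line. The chemokine gene Ccl8 and the sodium pump gene Atp1b1 had -3.94 and -3.86. Aldh1a7 and Sprr1a, higher in MuSK-null myoblasts than in the other untreated groups, had -3.60 and -3.36.

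The stage contrast of BMP4-treated MuSK-null cells, on 6 other arrays, measures the stage change of the same line under treatment. Unlike the untreated contrast, it includes serum deprivation of the myoblasts alone. It called 8462 genes (42.4%), with 3538 higher (17.7%) and 4924 lower (24.7%). Of the rises in untreated MuSK-null cells 2806 were also called higher there (77.4%, or 79.3% of the treated rises), and of the falls 3866 (82.9%, or 78.5%). Opposite calls were made for 35 genes that rose and 60 that fell in untreated cells. Across genes the changes had a Pearson r of 0.92 and a Spearman rho of 0.79, and no array is shared. Replicate 2 of the untreated and of the treated MuSK-null myoblasts were among the 4 arrays whose deviations ran together. Myoz2 rose by 6.37 in treated and 6.25 in untreated cells, Actn2 by 5.55 and 5.62, and Casq1 by 5.96 and 6.02. The changes of Cdc20 were -2.16 and -2.12.

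Id1, Id2 and Id3 had small changes in the treated cells. Under BMP4 the changes were -0.32 for Id1, -0.55 for Id2 and -0.30 for Id3, against -1.51, -2.47 and -2.42 without it. Id4 also fell under BMP4, by 0.56, against a change of -0.04 without it that was not called. Id3 was at 11.32 to 11.57 in treated MuSK-null myotubes and 11.65 to 11.83 in treated MuSK-null myoblasts. Whether these changes differ with treatment was not tested here. Myog rose by 3.10 in treated cells and Chrnd by 3.10, against 2.43 and 1.39 in untreated cells. Myog averaged 12.39 in myotubes with and without BMP4, and 9.28 in treated against 9.96 in untreated myoblasts. Chrnd averaged 11.81 in treated and 12.02 in untreated myotubes, and 8.71 in treated against 10.63 in untreated myoblasts. Treated myoblasts had been deprived of serum and treated myotubes had not, so serum and BMP4 cannot be told apart in these pairs of values.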

How the data were processed

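Total RNA of 24 samples was hybridised to Affymetrix whole-transcript mouse gene arrays, 1 array per sample. The deposited table holds log2 values per probe set, a scale read from the values. The sources used here do not say how the authors corrected background, summarised probes or normalized arrays; Affymetrix Expression Console and Partek are named, without role or version, per the submitters' processing notes. Of 35556 rows, 21789 name 1 gene; 12146 name none and 1621 several, and these were left out. For 999 genes with several rows, the row with the highest mean was kept, which left 19938 genes.

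Group means were estimated from all 24 arrays together (limma 3.58.1, R 4.3.3, lmFit and eBayes, 16 residual degrees of freedom), with Benjamini-Hochberg adjustment over 19938 genes. Precision is limited by the 3 arrays per group. The fit was tested on simulated data. The members, the 25 gene lists and the 10 marker lists were chosen with earlier results of these data known.

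Genes were named by a rule: the 20 largest rises and 20 largest falls without overlap between the groups, for each list at most 6 called members each way, members not called, the 10 largest differences between lines per direction, up to 2 differences per list and direction, and 15 fixed muscle and cell cycle genes. Of 192 genes named, 5 (Mcm2, Myh1, Myh2, Myh4 and Pcna) lay outside it and were chosen after their values were seen.

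Promoter and microRNA sequences were read from RefSeq tables (GRCm38.p6). Alternatives were the compared groups alone, a trended robust fit, quantile normalization, median centring, a filter that dropped the 30% of genes of lowest signal, other handling of several rows per gene, a replicate block, a minimum fold and each array left out. Leaving out the set of 4 arrays was added after seeing the data. Replicate numbers did not pair MuSK-null myotubes with MuSK-null myoblasts, since deviations of same-numbered arrays correlated at 0.04, 0.02 and 0.18. Between MuSK-null and wild-type myoblasts same-numbered arrays correlated at 0.29, 0.42 and 0.22, a pairing seen in the data and not given by the labels, and between the myotubes of the lines at 0.03, 0.09 and 0.10.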

Additional observations from a re-analysis of the deposited data

Results flagged for a closer look

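The change with differentiation differed between the MuSK-null and the wild-type line for 5796 of 19938 genes, by a test of the difference itself (limma, adjusted p under 0.05), and the genes named here are those of the report. Where the change was more positive in the MuSK-null line, the differences were 4.47 for Fras1, 4.13 for Gatm, 4.12 for Hey1, 3.97 for Nrk, 3.72 for Lmod2, 3.71 for Lum, 3.71 for Myh3, 3.46 for Myoz2, 3.38 for Actn2, 3.37 for Lama4, 3.12 for Tnnc2, 2.91 for Casq2, 2.88 for Erbb3, 2.07 for Cdkn1c, 2.03 for Myog, 1.86 for Pttg1, 1.84 for Mef2c, 1.04 for Mki67 and 0.76 for Cdk1. Where it was more negative, they were -4.42 for Gria3, -4.26 for Cacna2d2, -3.94 for Ccl8, -3.86 for Atp1b1, -3.76 for Hgf, -3.69 for Myl2, -3.63 for Id2, -3.60 for Aldh1a7, -3.45 for Ifit3, -3.36 for Sprr1a, -3.35 for Grem1, -3.29 for Usp18, -2.21 for Ccnd1, -2.19 for Id3, -1.95 for Id1, -1.76 for Eda2r, -1.03 for Mdm2 and -0.79 for Musk. Each line is 1 line, so genotype and line cannot be told apart in any of these values.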

How the results depend on the processing

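With 3 arrays per group and no detection calls, changes of genes of low signal are the least certain. Requiring a fold change of at least 1.5 beside the adjusted p left 3279 genes called in MuSK-null cells, 3560 in wild-type cells, 2567 for the difference between the lines and 3359 in BMP4-treated MuSK-null cells. Leaving out 1 array at a time gave 7629 to 7879 genes in MuSK-null cells, 8203 to 8591 in wild-type cells, 5228 to 5607 for the difference and 7867 to 8087 in treated cells. Under the other alternatives none of these 4 totals moved by over 1.5 times. Of 70 counts of list members that rose or fell in MuSK-null cells, 37 moved by over 1.5 times under the fold minimum, among them the respiratory chain genes that rose, 24 against 63. Under the other alternatives 10 of the 70 moved, each a count of at most 5 members. Of these, the 2 microRNA loci that fell numbered 0 without MuSK-null myoblast replicate 1 or 2 and 1 without any of the 3 MuSK-null myotube arrays, and the cholesterol genes that rose numbered 1 without MuSK-null myoblast replicate 1 or 2 or MuSK-null myotube replicate 1 or 3. With a replicate block the totals were 8083, 8496, 6009 and 7721 in that order. The numbers do not pair the stages within the MuSK-null line, but they go with shared deviations of the myoblasts of both lines, which enter the difference, and the block changed none of the 41 named differences. Centring each array on its median lowered the share of called genes that were higher to 38.2%, against 43.7%, in MuSK-null cells, and to 41.8%, against 51.4%, for the difference. Of the 192 named changes 167 kept their direction and call under each alternative that tested them, as did 40 of 41 named differences. Without the 30% of genes of lowest signal, 10 of these changes and 2 of these differences were not tested. The 1 reversal was Tpm3, at 0.12 when the probe sets of a gene were averaged, against -0.55. Tpm1 was called in 5 and Rpa2 in 3 of the alternatives.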
